A study of Mus musculus with 21 samples.

Results

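The genes described here are Ncapg2, Vipr2 and Ptprn2, which lie together near the end of mouse chromosome 12, close to the reported insertion site of the CaMKII-tTA driver transgene. All probe sets of these 3 genes were taken. Each gene had 1 probe set on the array (1417926_at for Ncapg2, 1421391_at for Vipr2 and 1425724_at for Ptprn2), so the members are 3 of 22626 probe sets, or 3 of 12393 genes named by a probe set of a single gene. The rule uses position and no measured value, but the members were chosen with earlier results of these data known. The ranks and p-values below are therefore not independent of that choice.

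The study measured RNA from the cerebral cortex of 21 mice, each on 1 Affymetrix MOE430A 2.0 array, after 2 weeks without doxycycline in the diet. Doxycycline holds back tTA, the tetracycline-controlled transactivator, and its withdrawal lets tTA switch on a TDP-43 transgene in the same mouse. The dNLS bigenic group (n = 5, line NLS4) carried tTA and the transgene for TDP-43 lacking its nuclear localization signal. The WT bigenic group (n = 4, line WT12) carried tTA and the transgene for wild-type TDP-43. The dNLS monogenic group (n = 4, line NLS4) carried the dNLS transgene without tTA. The nontransgenic group (n = 8) carried neither, with 6 mice of line NLS4 and 2 of line WT12. All had a mixed C57BL/6J x C3HeJ background, and the sources used here give no mouse ages. The labelled sexes were 4 males and 1 female among dNLS bigenic mice, 1 male and 3 females among WT bigenic mice, 3 males and 1 female among dNLS monogenic mice, and 4 of each among nontransgenic mice. The 9 bigenic mice are called tTA carriers below, and the 12 others mice without tTA. No group carried tTA alone, so the driver, its insertion and the induced TDP-43 cannot be told apart in any comparison of carriers with mice without tTA. The CaMKII promoter is known to drive tTA mainly in excitatory neurons of the forebrain, while the RNA came from whole cortex, in which fewer cells of a type and less RNA per cell cannot be told apart.

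A transgene that integrates at random can disrupt or remove the genes where it lands, and the insertion of this driver has been reported together with a loss of sequence in the stretch that holds these genes. Ncapg2 encodes a subunit of condensin II, a ring-shaped complex that compacts and organizes chromosomes in dividing cells and is also present in nuclei outside mitosis. Vipr2 encodes VPAC2, a G protein-coupled receptor for the peptides VIP and PACAP that raises cyclic AMP and is best known in the brain for the circadian clock of the suprachiasmatic nucleus. Ptprn2 encodes phogrin (IA-2beta), a membrane protein of dense-core vesicles that is related to receptor tyrosine phosphatases and has Ptprn (IA-2) as its paralog.

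Among the members only Ncapg2 had a level well above the lowest value, so its promoter is shown, as the stretch from which a measured transcript starts. The 250 bases before its annotated start, chr12:116405186-116405435 on the plus strand of GRCm38.p6, are given from RefSeq. Capitals mark matches to 2 short motifs that were searched on both strands and do not overlap.

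Ncapg2: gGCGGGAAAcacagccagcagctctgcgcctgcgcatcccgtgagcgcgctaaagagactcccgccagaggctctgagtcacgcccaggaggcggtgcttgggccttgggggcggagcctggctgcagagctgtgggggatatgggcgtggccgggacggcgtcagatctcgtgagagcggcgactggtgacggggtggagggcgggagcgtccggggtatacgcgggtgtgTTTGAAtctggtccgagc

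The first match is GCGGGAAA, the E2F-type site, which lies 249 bases before the start and was found in 0.895% of 32851 promoters of the same length. The second is TTTGAA, the core of the cell-cycle genes homology region, which lies 18 bases before the start and was found in 5252 of them. Both motifs together were found in 0.128% of promoters. The Ncapg2 stretch holds 24 CpG dinucleotides, more than 88.0% of promoters. The corresponding stretches of Vipr2 and Ptprn2, on the same strand, hold 13 and 15 CpG dinucleotides and 0 matches to either motif. A match describes letters and not a bound site, and an absent match says only that those letters are not in this window.

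The deposited values ran from 2.04 to 15.1 on the log2 scale. The lowest value was shared by many probe sets. In all, 5810 probe sets (25.7%) stood within 0.01 of 2.04 on every array, and a gene there is below what these values can resolve. Array medians were 5.76 to 6.05, and 30.7% to 32.3% of probe sets per array stood within 0.01 of it. The difference between the 3' and 5' control probe sets of β-actin, which grows as RNA is cut or copied incompletely, was 1.34 to 3.27 log2 units on 19 arrays, against 4.70 and 8.20 on nontransgenic arrays 4 and 6. One array, a nontransgenic one labelled male, read as female from its X- and Y-linked transcripts. Tardbp encodes the mouse's own TDP-43 and had 4 probe sets. One of them, 1423723_s_at, was 9.38 to 9.62 in dNLS bigenic mice, against 10.45 to 11.07 over the other 3 groups. It fell by 1.32 ± 0.09 (SE) log2 units in dNLS bigenic against nontransgenic mice (limma, adjusted p = 1.76e-08). In WT bigenic against nontransgenic mice it differed by -0.21 (adjusted p = 0.245). The 4 probe sets disagreed in dNLS bigenic against nontransgenic mice. Probe set 1434419_s_at rose by 1.11 ± 0.19 (limma, adjusted p = 0.000349), 1428467_at fell by 0.22 ± 0.07 (adjusted p = 0.0240), a call lost without dNLS bigenic 4 or 5, and 1455655_a_at differed by -0.43 (adjusted p = 0.309). Whether these probe sets also read the transgenes is not known from the files. The excitatory neuron markers Tbr1, Neurod6 and Neurod2, all measured well above the lowest value, averaged 10.3 to 11.2 over the arrays.

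Ncapg2 was lower in tTA carriers than in mice without tTA. In dNLS bigenic mice the log2 levels were 6.83, 6.65, 6.98, 4.38 and 4.44. In WT bigenic mice they were 2.90, 5.53, 3.46 and 2.98. In dNLS monogenic mice they were 6.26, 7.13, 6.73 and 6.66. The 8 nontransgenic mice had a lowest level of 6.63, a median of 7.17 and a highest of 8.48. All 4 WT bigenic arrays were below every array without tTA. Among dNLS bigenic arrays, those numbered 4 and 5 were below every array without tTA, while the other 3 lay inside the range of the dNLS monogenic mice. In total 6 of 9 carriers were below all 12 mice without tTA. For these counts the share of all probe sets that do the same was not obtained.

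**Figure D1:**
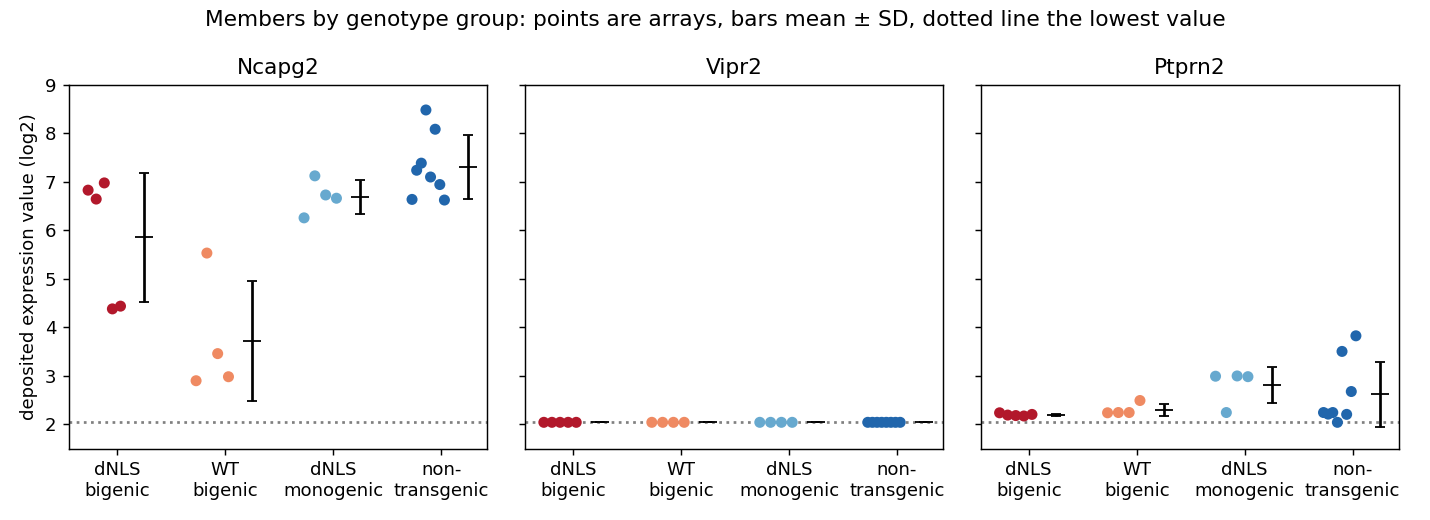
Deposited log2 levels of Ncapg2, Vipr2 and Ptprn2 on each of 21 arrays, by genotype group; points are arrays, bars are the group mean ± SD and the dotted line is the lowest value, 2.04. All WT bigenic arrays and 2 of 5 dNLS bigenic arrays have Ncapg2 below every array without tTA, a pattern whose share among all probe sets was not counted. Vipr2 lies on the dotted line in every group, and Ptprn2 lies close to it in both bigenic groups.

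Over the groups, Ncapg2 averaged 5.85 ± 1.32 in dNLS bigenic mice (SD, n = 5), 3.72 ± 1.23 in WT bigenic mice (SD, n = 4), 6.69 ± 0.35 in dNLS monogenic mice (SD, n = 4) and 7.31 ± 0.66 in nontransgenic mice (SD, n = 8). The order of the group means from low to high was WT bigenic, dNLS bigenic, dNLS monogenic, nontransgenic. Across all arrays its SD of 1.60 was larger than that of 99.5% of probe sets, at a mean level of 6.16 that exceeded 50.8% of them. The spread was thus wide for the gene as a whole and widest inside both carrier groups, whose SDs were 1.32 and 1.23, against 0.35 and 0.66 in the groups without tTA.

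In the fit over all probe sets, tTA carriers were set against mice without tTA with equal weight per group. The average of the dNLS bigenic and WT bigenic means was compared with that of the dNLS monogenic and nontransgenic means. Ncapg2 fell by 2.19 ± 0.43 log2 units (SE; 95% interval -3.10 to -1.28) in this comparison, a 4.57-fold lower level (limma, adjusted p = 0.00237). A two-sided exact permutation test, made on arrays pooled over groups with a plain mean difference of -2.20, gave p = 0.000391. In this comparison 13.4% of all probe sets passed the adjusted threshold of 0.05, 6.67% higher and 6.75% lower, so passing it was common. Among the 1527 probe sets that fell, the fall of Ncapg2 was eighth in size. The count of members that passed was 1 of 3.

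WT bigenic mice had the lowest Ncapg2 levels. Against nontransgenic mice Ncapg2 fell by 3.53 ± 0.59 log2 units (SE; 95% interval -4.78 to -2.28), or 11.5-fold (limma, adjusted p = 0.0106). This was the largest fall among the 280 probe sets that fell in that comparison, in which 1.9% of all probe sets passed and 1.24% were called lower. The groups did not overlap, which was also true, in the same direction, of 2.57% of all probe sets. The exact permutation test gave p = 0.00202, the smallest that 4 against 8 arrays allow. The call did not hold without WT bigenic array 1, where the difference was -3.05 (limma, adjusted p = 0.0631). Against the 2 nontransgenic mice of line WT12 alone, whose Ncapg2 averaged 6.79 ± 0.23 (SD, n = 2), it was -3.10 (limma, adjusted p = 0.215). Both values keep the direction with fewer arrays.

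In dNLS bigenic mice no comparison with mice lacking tTA passed. Against dNLS monogenic mice, the same line and transgene without tTA, the Ncapg2 difference was -0.85 ± 0.63 (95% interval -2.19 to 0.49; limma, adjusted p = 0.583; exact permutation p = 0.357), with 11.9% of all probe sets passing. Against nontransgenic mice it was -1.54 ± 0.56 (95% interval -2.71 to -0.36; limma, adjusted p = 0.0639; exact permutation p = 0.0155), with 19.3% passing. This second difference passed under some alternatives, given in the closing part. Since 3 arrays stood at 6.65 to 6.98 and 2 at 4.38 and 4.44, the group mean of 5.85 lay at no array's own level.

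The carrier groups also stood apart from each other in value. Ncapg2 differed by 1.99 ± 0.68 between dNLS bigenic and WT bigenic mice (95% interval 0.55 to 3.43), which missed the threshold (limma, adjusted p = 0.0887; exact permutation p = 0.0556), with 8.41% of all probe sets passing. Only the WT bigenic array at 5.53 overlapped the dNLS bigenic range. In the absence of tTA, dNLS monogenic mice differed from nontransgenic mice by -0.68 ± 0.59 (95% interval -1.93 to 0.56; limma, adjusted p = 1; exact permutation p = 0.117). In that comparison 0% of probe sets passed, and 333 of 22626 had an unadjusted p under 0.05. The interval includes 0 and differences down to -1.93, so these arrays exclude neither no shift nor a fall of that size with the silent transgene. Comparisons that use the same nontransgenic or bigenic arrays share those values and are not independent.

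**Figure D2:**
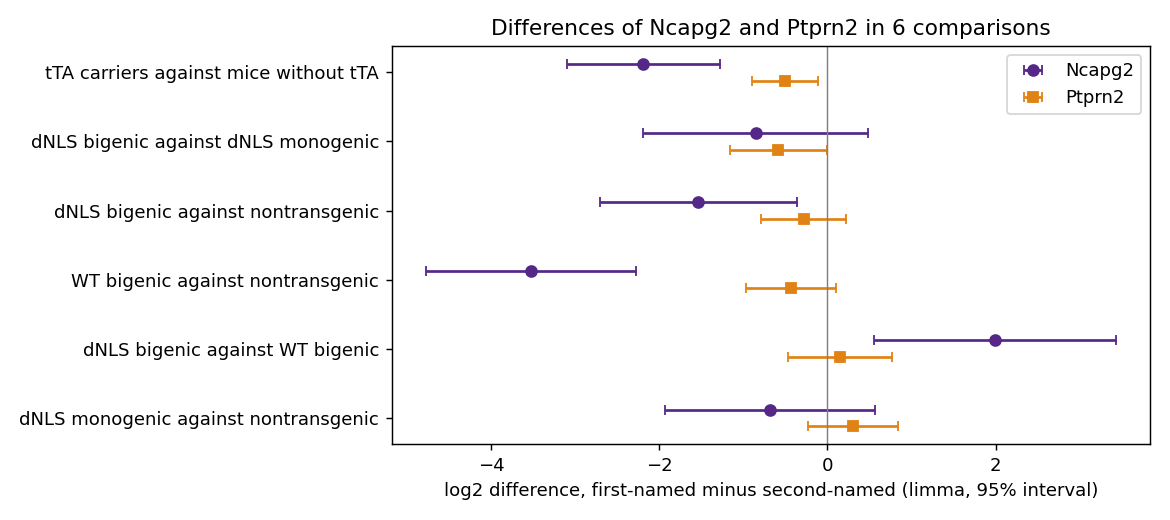
Log2 differences of Ncapg2 (circles) and Ptprn2 (squares) in 6 comparisons, the first-named group minus the second-named, with 95% intervals from limma. The Ncapg2 interval runs from -4.78 to -2.28 in WT bigenic against nontransgenic mice and from -3.10 to -1.28 in tTA carriers against mice without tTA, while its interval in dNLS bigenic against dNLS monogenic mice includes 0.

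In value, Ncapg2 was lower in carriers of both labelled sexes. Among females it averaged 4.10 ± 1.13 in carriers (SD, n = 4) and 7.08 ± 0.59 in mice without tTA (SD, n = 5), at 2.98 to 5.53 against 6.63 to 8.09. These ranges did not overlap, which held in this direction for 3.34% of all probe sets. Among males it averaged 5.55 ± 1.82 in carriers (SD, n = 5) and 7.12 ± 0.72 in mice without tTA (SD, n = 7), with overlap. Fitted within a sex, the difference between carriers and mice without tTA was -2.52 in males (limma, adjusted p = 0.0355), where the WT bigenic group had 1 mouse, and -2.71 in females (adjusted p = 0.223), where the dNLS bigenic and dNLS monogenic groups had 1 each. A lone mouse is assumed there to vary like the other groups.

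RNA quality moved with the groups to some extent. The β-actin 3' minus 5' difference averaged 1.75 ± 0.35 in dNLS bigenic mice (SD, n = 5), 1.39 ± 0.03 in WT bigenic mice (SD, n = 4), 2.00 ± 0.76 in dNLS monogenic mice (SD, n = 4) and 3.18 ± 2.31 in nontransgenic mice (SD, n = 8). The highest Ncapg2 levels, 8.48 and 8.09, came from nontransgenic arrays 4 and 6, which also had the largest 3' bias. Without these 2 arrays the Ncapg2 difference of carriers against mice without tTA was -2.03 (limma, adjusted p = 0.00332), and with the bias as a covariate it was -1.97 (limma, adjusted p = 0.00485). The low dNLS bigenic arrays 4 and 5 had biases of 1.34 and 2.30, the lowest and the highest of their group. The mean level of 5 microglial markers was 9.17 to 10.2 in WT bigenic mice, against 7.87 to 9.47 in nontransgenic mice, with 0 of the 5 passing (limma; 1 with an unadjusted p under 0.05) and none at the lowest value. Its part in the Ncapg2 difference was not tested.

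**Figure D3:**
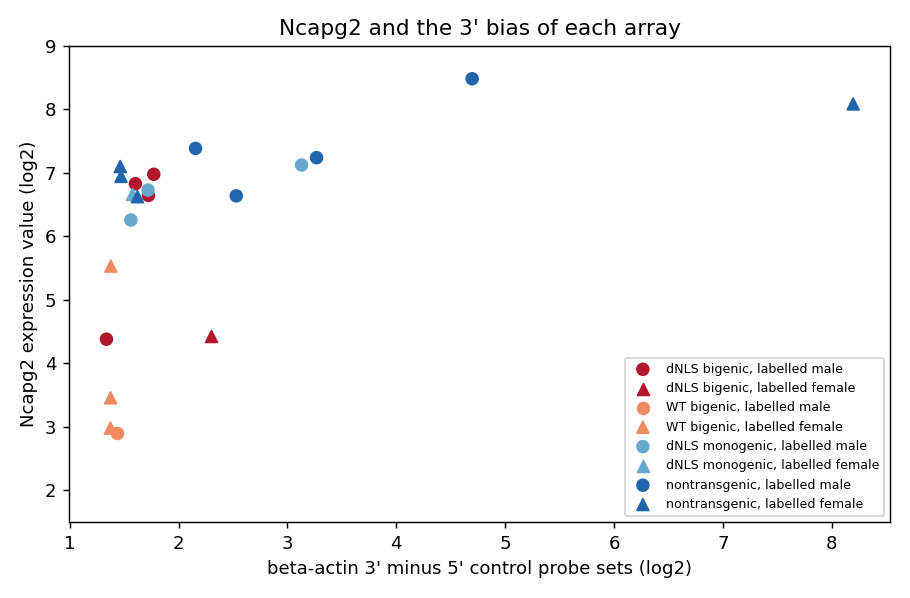
Ncapg2 log2 level of each array against the β-actin 3' minus 5' difference of the same array (log2), coloured by genotype group, with circles for mice labelled male and triangles for those labelled female. Nontransgenic arrays 4 and 6 lie far to the right, at 4.70 and 8.20, with the highest Ncapg2 levels, and the WT bigenic arrays lie at 1.37 to 1.43 with levels of 2.90 to 5.53.

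Ptprn2 was close to the lowest value on most arrays, and no comparison of it passed the threshold. In dNLS bigenic mice the log2 levels were 2.24, 2.19, 2.18, 2.17 and 2.20. In WT bigenic mice they were 2.24, 2.24, 2.24 and 2.49. In dNLS monogenic mice they were 2.99, 2.24, 3.00 and 2.98. The nontransgenic mice had a lowest level of 2.04, a median of 2.24 and a highest of 3.83. Levels more than 0.5 above the lowest value occurred on 6 of 12 arrays without tTA and on 0 of 9 arrays with it. Of the 8 nontransgenic arrays, 5 also lay within 0.5 of the lowest value. The share of all probe sets with such a split was not counted, so it is not read as a result about Ptprn2.

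Ptprn2 averaged 2.20 ± 0.03 in dNLS bigenic mice (SD, n = 5), 2.30 ± 0.12 in WT bigenic mice (SD, n = 4), 2.80 ± 0.37 in dNLS monogenic mice (SD, n = 4) and 2.62 ± 0.68 in nontransgenic mice (SD, n = 8). The difference between carriers and mice without tTA was -0.51 ± 0.19 (95% interval -0.90 to -0.12; limma, adjusted p = 0.0840; exact permutation p = 0.0364). With nontransgenic arrays 4 and 6 left out it was -0.59 (limma, adjusted p = 0.0254), and with the 3' bias as a covariate -0.68 (limma, adjusted p = 0.00513). Against dNLS monogenic mice, dNLS bigenic mice differed by -0.58 ± 0.27 (95% interval -1.16 to -0.01; limma, adjusted p = 0.225). Those 2 groups did not overlap, by a gap under 0.01, while 7.19% of all probe sets were apart in this direction by more than that, and the exact permutation p of 0.00794 was the smallest possible for 5 against 4 arrays.

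In the other comparisons Ptprn2 differed by -0.28 ± 0.24 between dNLS bigenic and nontransgenic mice (limma, adjusted p = 0.537), by -0.43 ± 0.25 between WT bigenic and nontransgenic mice (adjusted p = 0.399) and by 0.30 ± 0.25 between dNLS monogenic and nontransgenic mice (adjusted p = 1). Between dNLS bigenic and WT bigenic mice the fitted difference was 0.15 ± 0.29 (limma, adjusted p = 1), while the plain difference of means was -0.11. The exact permutation p on plain means was 0.00794, the smallest possible. The highest dNLS bigenic and the lowest WT bigenic array both read 2.24, a gap under 0.01, while 8.93% of all probe sets were apart in this direction by more than that. The sign depends on the sex covariate, and all 9 values lie within 0.5 of the lowest value, where an order has little meaning. The 5 females without tTA averaged 3.04 ± 0.65 (SD, n = 5), above the 7 males without tTA at 2.43 ± 0.40 (SD, n = 7).

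Vipr2 stood at the lowest value, 2.04, on all 21 arrays. It gave no measurable level in any group, as did 25.7% of all probe sets, so a fall could not be seen. No array showed a rise above this level, and a rise too small for these values to resolve could not be seen. Exact tests were therefore made for the other 2 probe sets alone, 12 tests in all over 6 comparisons, and their p-values are unadjusted.

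Of the neighbouring genes, 1 passed in carriers. In RefSeq order, Wdr60 and Esyt2 lie between Vipr2 and Ncapg2, and neither is named by a probe set of this array. Of 15 protein-coding genes before Vipr2, 9 had a probe set, and of 9 after Ptprn2 up to the last gene of the chromosome, 3 had one. Of their 15 probe sets, 0 were higher and 1 was lower in carriers, or 6.67%, with a median log2 difference of 0.00. With arrays centred on their medians 5 of the 15 passed, beside 10959 of all 22626, and with array weights 5 passed, beside 6305 of all. On the rest of chromosome 12, 32 of 654 probe sets were higher and 68 lower, or 15.3% in all, and 13.4% of all probe sets on the array passed.

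The 1 neighbour that fell was Crip2, a LIM-domain protein, which fell by 0.29 ± 0.05 log2 units in carriers (limma, adjusted p = 0.000835). It averaged 10.09 ± 0.06 in dNLS bigenic mice (SD, n = 5), 10.95 ± 0.16 in WT bigenic mice (SD, n = 4), 10.86 ± 0.03 in dNLS monogenic mice (SD, n = 4) and 10.74 ± 0.13 in nontransgenic mice (SD, n = 8). Its low group was thus dNLS bigenic, whereas that of Ncapg2 was WT bigenic. The nearest measured gene before Vipr2 was Zfp386, a zinc finger gene, whose 2 probe sets differed by 0.75 ± 0.38 (limma, adjusted p = 0.251) and 0.19 ± 0.10 (adjusted p = 0.273). After Ptprn2, the transcription factor gene Sp4 had differences of -0.70 ± 0.35 (adjusted p = 0.236) and -0.20 ± 0.10 (adjusted p = 0.239), the first from a probe set with group means of 2.41 to 3.49. Cdca7l and Dnah11 lay near the lowest value.

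**Figure D4:**
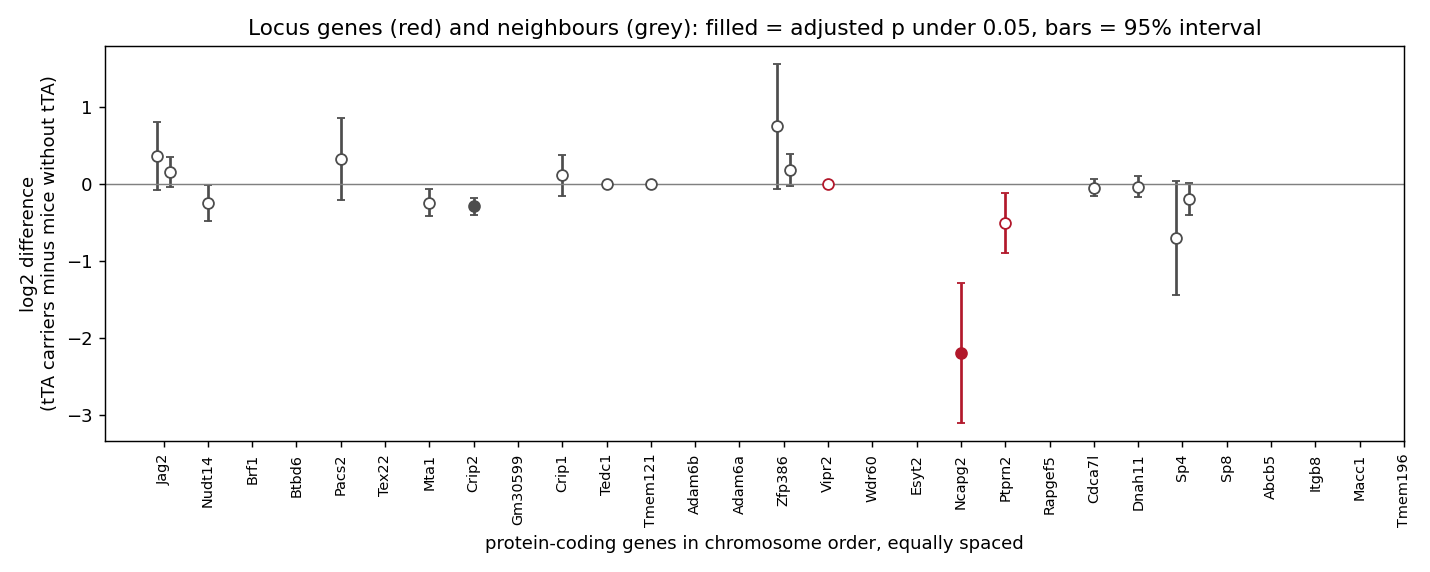
Log2 difference of tTA carriers minus mice without tTA for each probe set of the members (red) and their protein-coding neighbours (grey), in chromosome order with genes equally spaced; bars are 95% intervals and filled points have an adjusted p under 0.05. Ncapg2 at -2.19 and Crip2 at -0.29 are the filled points, and genes without a point have no probe set.

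Condensin was the first family examined around Ncapg2, and 7 of its 8 subunit genes had a probe set. In carriers against mice without tTA, 0 were higher and 2 lower, Ncapg2 itself and Smc2, with a median log2 difference of 0.02, in a comparison where 13.4% of all probe sets passed. A gene with several probe sets is counted by the one of highest mean. Smc2, an ATPase core subunit that condensin I and II share, averaged 7.86 ± 0.07 in dNLS bigenic mice (SD, n = 5), 8.13 ± 0.15 in WT bigenic mice (SD, n = 4), 8.47 ± 0.17 in dNLS monogenic mice (SD, n = 4) and 8.64 ± 0.44 in nontransgenic mice (SD, n = 8). It fell by 0.58 ± 0.13 log2 units in carriers (limma, adjusted p = 0.00664), and it fell by 0.72 in dNLS bigenic against nontransgenic mice (adjusted p = 0.00533). Unlike Ncapg2, it had its lowest mean in dNLS bigenic mice. Ncaph2, the kleisin subunit of condensin II and the partner of Ncapg2 in that complex, differed by 0.11 ± 0.06 (limma, adjusted p = 0.285), at group means of 9.95 to 10.18. That probe set passed, as higher, with array weights (0.13, adjusted p = 0.0156), with nontransgenic arrays 4 and 6 left out (0.14, adjusted p = 0.0259), with the 3' bias as a covariate (0.17, adjusted p = 0.00719) and without nontransgenic 6. The probe sets of Ncaph2 disagreed. Its second one, 1423698_at, averaged 9.97 ± 0.07 in dNLS bigenic mice (SD, n = 5), 9.83 ± 0.11 in WT bigenic mice (SD, n = 4), 9.41 ± 0.17 in dNLS monogenic mice (SD, n = 4) and 9.29 ± 0.38 in nontransgenic mice (SD, n = 8), and it rose by 0.54 ± 0.11 in carriers (limma, adjusted p = 0.00409). The third, 1423699_at, differed by 0.15 ± 0.09 (adjusted p = 0.384). Smc4 and Ncapd2 differed by 0.04 and 0.02, and the condensin I subunits Ncapg and Ncaph lay near the lowest value.

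Genes of cell division gave little signal, since 7 of 13 measured ones stood within 0.01 of the lowest value on every array. None of the 13 passed in carriers against mice without tTA (limma), and 0 had an unadjusted p under 0.05.

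Of 19 listed genes of VIP and PACAP signalling, 16 had a probe set, and in carriers 0 were higher and 2 lower, with a median of -0.07, beside the 13.4% of all probe sets that passed. Both ligands of Vipr2 were measured well above the lowest value, although the 3 receptor genes Vipr2, Vipr1 and Adcyap1r1 lay at or near it. Vip, the peptide of a class of cortical interneurons, averaged 11.31 ± 0.12 in dNLS bigenic mice (SD, n = 5), 10.98 ± 0.19 in WT bigenic mice (SD, n = 4), 11.32 ± 0.26 in dNLS monogenic mice (SD, n = 4) and 11.50 ± 0.32 in nontransgenic mice (SD, n = 8), a difference of -0.25 ± 0.11 in carriers (limma, adjusted p = 0.176). Adcyap1, which encodes PACAP, averaged 9.65 ± 0.48 in dNLS bigenic mice (SD, n = 5), 8.67 ± 0.16 in WT bigenic mice (SD, n = 4), 9.34 ± 0.30 in dNLS monogenic mice (SD, n = 4) and 9.49 ± 0.24 in nontransgenic mice (SD, n = 8).

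Adcyap1 fell by 0.81 ± 0.20 in WT bigenic against nontransgenic mice (limma, adjusted p = 0.0454). It was 0.95 ± 0.23 higher in dNLS bigenic than in WT bigenic mice (limma, adjusted p = 0.0129). The first call was lost on leaving out any of 15 of the 21 arrays, with adjusted p up to 0.177 (each WT bigenic array, dNLS bigenic 2, 3 and 4, dNLS monogenic 1, 2 and 3, and nontransgenic 1, 2, 3, 4 and 6), and the second without WT bigenic 1 (adjusted p = 0.0933). With nontransgenic mice of the same line the first was -0.51 (adjusted p = 0.722), and among females the second was 0.24 (adjusted p = 1). The receptors Vipr2 and Vipr1 stood at 2.04 on 21 of 21 arrays, and the PACAP receptor gene Adcyap1r1 stood within 0.01 of it on 19.

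The list members that fell in carriers were Ramp3 and Adcy2. Ramp3, a receptor activity-modifying protein that escorts certain peptide receptors to the membrane, averaged 5.17 ± 0.28 in dNLS bigenic mice (SD, n = 5), 6.49 ± 0.45 in WT bigenic mice (SD, n = 4), 6.70 ± 0.34 in dNLS monogenic mice (SD, n = 4) and 6.52 ± 0.23 in nontransgenic mice (SD, n = 8). It fell by 0.78 ± 0.15 in carriers (limma, adjusted p = 0.0019), but the difference was -0.36 among males (adjusted p = 0.288) and -1.28 among females (adjusted p = 0.114). Adcy2, an adenylate cyclase, fell by 0.20 ± 0.05 (adjusted p = 0.0178).

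Of 20 listed dense-core vesicle genes, 18 had a probe set, of which 1 was higher and 4 lower in carriers, with a median of -0.03, again beside 13.4% of all probe sets. Ptprn, the paralog of Ptprn2, was strongly expressed at 11.5 to 12.1 on every array and differed by 0.07 ± 0.06 (limma, adjusted p = 0.586). Chga, which encodes the granule cargo chromogranin A, rose by 0.38 ± 0.09 (adjusted p = 0.00962), and its group mean was highest in dNLS bigenic mice at 11.76, against 10.94 to 11.13 in the other 3 groups. Cadps2, a factor for vesicle priming, fell by 0.38 ± 0.03 (adjusted p = 1.27e-06), with means of 11.72 in dNLS bigenic and 12.24 in WT bigenic mice, against 12.35 in dNLS monogenic and 12.38 in nontransgenic mice. Rab27b, a small GTPase of vesicle docking, fell by 0.16 ± 0.04 (adjusted p = 0.0148). That call was lost among males (-0.11) and with nontransgenic mice of the same line as the only reference (-0.09, adjusted p = 0.305). Pam, the enzyme that amidates peptides, fell by 0.23 ± 0.07 (adjusted p = 0.0408), a call lost on leaving out any of 11 arrays (each WT bigenic array, dNLS bigenic 1, 3, 4 and 5, and dNLS monogenic 2, 3 and 4). In WT bigenic against nontransgenic mice, where the Ncapg2 difference was largest, 0 of the 18 passed (limma; 4 with an unadjusted p under 0.05), beside 1.9% of all probe sets.

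**Figure D5:**
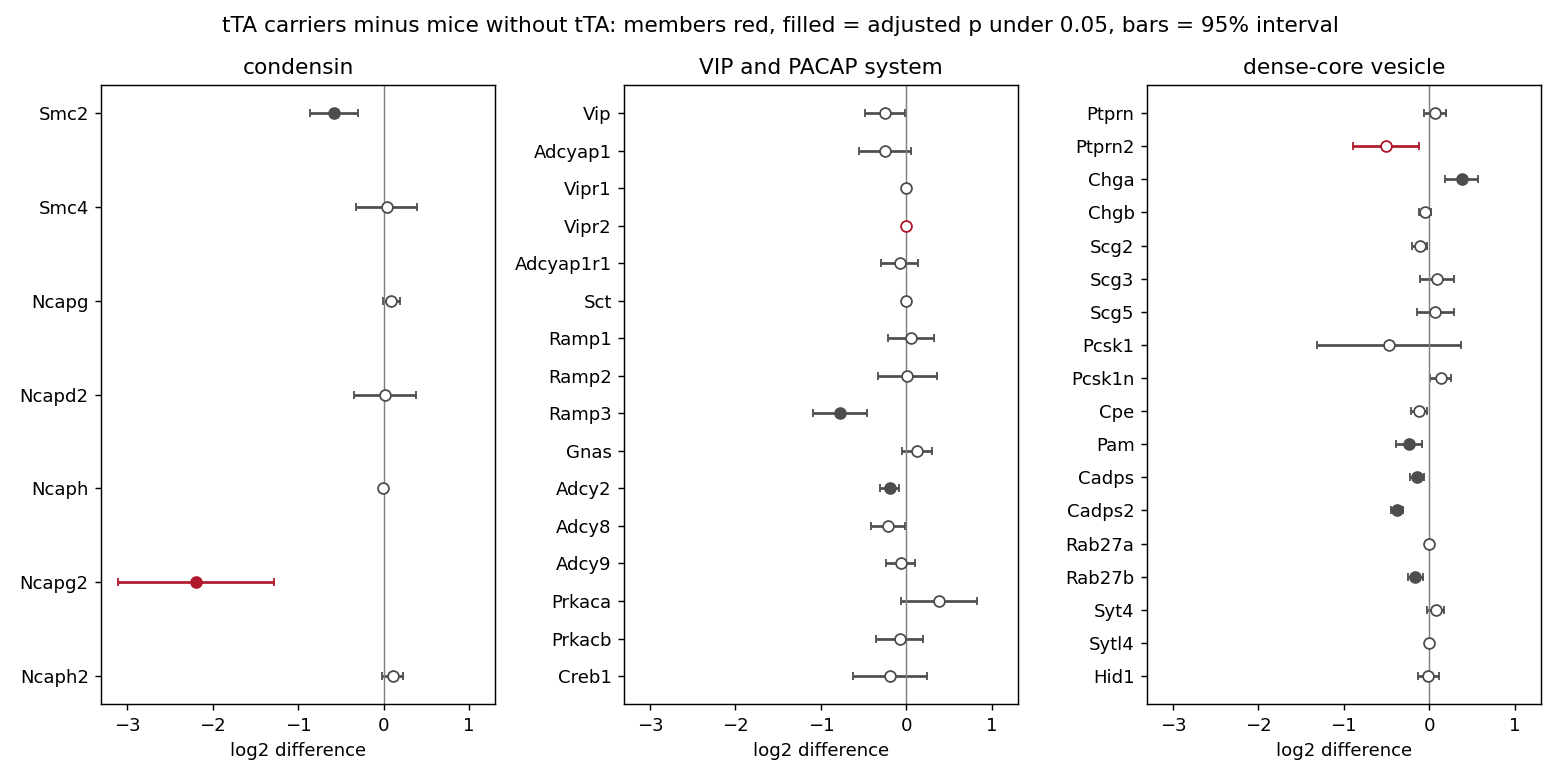
Log2 difference of tTA carriers minus mice without tTA for each measured gene of condensin, of VIP and PACAP signalling and of dense-core vesicles; members are red, bars are 95% intervals and filled points have an adjusted p under 0.05. Each gene is shown by its probe set of highest mean. Ncapg2 lies at -2.19, apart from the other condensin genes, which lie between -0.58 and 0.11 by that probe set. The Ncaph2 probe set 1423698_at, not shown, was at 0.54.

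The probe sets whose levels followed Ncapg2 most closely over the 21 arrays lay on other chromosomes. Among 14085 probe sets compared, the highest Pearson correlations were with Coro2b on chromosome 9 (r = 0.85), Trpm7 on chromosome 2 (0.84) and Shisa5 on chromosome 9 (0.84). The lowest were with Chchd6 on chromosome 6 (-0.85), Eps8l3 on chromosome 3 (-0.84) and Sin3b on chromosome 8 (-0.83). Coro2b, a coronin that binds actin, had means of 8.92 in dNLS bigenic and 7.06 in WT bigenic mice, against 9.15 in dNLS monogenic and 9.45 in nontransgenic mice. For Ptprn2 the highest were Racgap1 (0.80), Pgam2 (0.78) and Cd24a (0.77), and the lowest Slc38a2 (-0.78), Cog4 (-0.76) and Cerk (-0.74). Group means were 2.07 to 2.10 for Racgap1 and 2.34 to 2.51 for Cd24a. Like Ptprn2 these lay close to the lowest value, where likeness has little meaning. None of the 12 probe sets lay on chromosome 12, which held 654 of all 22626 besides the members and neighbours. That absence is therefore not read as a result about the locus. The arrays share genotype groups, sex imbalance and RNA quality, so these coefficients describe likeness over 21 arrays and carry no test.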

How the data were processed

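The log2 expression values were used as deposited, 1 column per array. The submitters' processing notes name Partek, with no version or role. The sources used here give neither normalization, background correction nor log base, and log2 was read from the range of the values. Per the labels' protocols, RNA (RIN of 7 or more) was extracted with TRIzol, primed with poly(T) and labelled with biotin.

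Probe sets were named from the platform's annotation, in which 20380 name 1 gene, 691 several and 1555 none. The 64 control probe sets were left out. limma 3.58.1 in R 4.3.3 (lmFit, eBayes with trend) was fitted on 22626 probe sets and 21 arrays, with 4 groups and labelled sex. P-values were adjusted over all probe sets by Benjamini-Hochberg, with a threshold of 0.05. Carriers were compared with mice without tTA as averages of group means, each group with equal weight. Single members were also tested with two-sided exact permutation tests on pooled arrays. For a list, the probe set of highest mean stood for a gene. Named genes were all probe sets of the members and of Tardbp, of the neighbours and each list at most the 4 largest changes past the threshold in tTA carriers, with Ptprn, Vip, Vipr1, Adcyap1 and Adcyap1r1 as relatives and ligands, the 3 highest and 3 lowest correlations per member, and the 5 largest falls and 5 largest rises in tTA carriers. Zfp386, Sp4, Cdca7l, Dnah11, Ncaph2, Smc4, Ncapd2, Ncapg and Ncaph, the excitatory markers, and second probe sets of listed genes were named after their values were seen. A value within 0.01 of the lowest counted as being there. The fit was tested on simulated data. The members and lists were chosen with earlier results of these data known. The number of arrays limits the precision. P-values set a group difference against the spread between these mice, which limma takes as shared by the 4 groups. Sequences came from RefSeq promoters (GRCm38.p6).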

Additional observations from a re-analysis of the deposited data

Results flagged for a closer look

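Both values that stood far from the rest of their group were Ptprn2 levels close to the lowest value. WT bigenic array 4 had a log2 level of 2.49, above the other 3 arrays of its group at 2.24. In dNLS monogenic mice, array 2 had 2.24, below the other 3 arrays at 2.98 to 3.00. Of 8 groups of members examined (Ncapg2 and Ptprn2 in 4 groups each), 2 held such an array. How often chance marks a group with levels this close to the lowest value was not worked out.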

How the results depend on the processing

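No paired analysis was possible because the groups share no replicate numbers in the labels. The results were recomputed under 14 alternatives (3 of them, both single-sex fits and nontransgenic mice of the same line, chosen after seeing the data) and without each of 21 arrays. Ncapg2 in carriers kept its direction in all alternatives and without each array, and its call in all but the female fit (-2.71). Its values were -2.71 to -1.55 over the alternatives and -2.50 to -1.96 on leaving out 1 array. In WT bigenic against nontransgenic mice its call was lost in males (-4.54), females (-3.20) and with nontransgenic mice of the same line (-3.10), and values without 1 array were -4.13 to -3.05. These fits have fewer arrays, with 1 WT bigenic male, 1 dNLS bigenic female and 1 dNLS monogenic female, each assumed to vary like the other groups. In dNLS bigenic against nontransgenic mice Ncapg2 passed without probe sets at the lowest value throughout (-1.54, adjusted p = 0.0427, fewer tests) and with arrays centred on their medians (-1.62, adjusted p = 0.0452). It also passed without dNLS bigenic 3, WT bigenic 1 or WT bigenic 2. Its values there were -2.75 to -0.46 over the alternatives and -1.79 to -1.06 on leaving out 1 array. In dNLS bigenic against WT bigenic mice it passed with no sex covariate (2.14) and with array weights (2.46), and without dNLS bigenic 4 or 5 or WT bigenic 2, over 1.43 to 2.55.

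Ptprn2 in carriers passed with centred arrays (-0.58), array weights (-0.65), nontransgenic 4 and 6 left out (-0.59), the bias covariate (-0.68) and without nontransgenic 6. Its values were -0.75 to -0.25 over the alternatives and -0.58 to -0.42 on leaving out 1 array. In dNLS bigenic against dNLS monogenic mice it passed with array weights (-0.67) and the bias covariate (-0.63), and in WT bigenic against nontransgenic mice with centred arrays (-0.54). Its sign turned in dNLS bigenic against WT bigenic mice with no sex covariate (-0.11), in males (-0.043) and in females (-0.12), in males for dNLS bigenic (0.011) and WT bigenic (0.053) against nontransgenic mice, and in females for dNLS monogenic against nontransgenic mice (-0.070). Centring gave Vipr2, a constant, differences of -0.076 in carriers and -0.11 in WT bigenic against nontransgenic mice, by construction, since it moves every probe set by those amounts. The neighbour count of 1 became 2 without probe sets at the lowest value, with quantile normalization, sex as read, line WT12 nontransgenic mice left out or nontransgenic 4 and 6 left out, 5 with centring or array weights, 0 in females, and 1 to 2 on leaving out 1 array (2 without dNLS monogenic 1, nontransgenic 5 or 7, or WT bigenic 2).

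The 3036 probe sets past the threshold in carriers became 373 to 10959 over the alternatives (10959 with centring, 1418 higher and 9541 lower, against 1509 and 1527 as deposited), and the 430 in WT bigenic against nontransgenic mice 1 to 9682 (9682 with centring, 484 higher and 9198 lower, against 150 and 280), or 62 to 924 on leaving out 1 array (924 without nontransgenic 5, 282 and 280 without dNLS monogenic 3 and 4, 234 without nontransgenic 7, and 69, 147, 62 and 267 without WT bigenic 1 to 4). For dNLS bigenic mice the counts of 2683 against dNLS monogenic, 4377 against nontransgenic and 1902 against WT bigenic mice became 336 to 7035, 556 to 6945 and 348 to 4744 (2878 without nontransgenic 6 and 1075 without WT bigenic 1 for the last), and the 0 of dNLS monogenic against nontransgenic mice 0 to 51. Of the other genes named in carriers, Ramp3, Adcy2, Chga, Rab27b, Pam, Sst and Pmaip1 lost their calls in both single-sex fits. Rab27b, Pam and Sst also lost them with same-line mice, Pam (-0.30) and Sst (-0.29) with quantile normalization and Sst with the bias covariate (-0.20). Among females alone the calls of Crip2, Smc2, Ncaph2 (1423698_at), Gad1, Rora, Otof, Susd2, Myh7, Myh1, Gadd45b, Tnfrsf12a and Plbd2 were lost, while Cadps2 and Spag5 kept theirs in all 14 alternatives and 1424556_at in the 13 that tested it. Levels near 2.04 limit Vipr2 and Ptprn2.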

Other observations

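Markers of other cell types were read in tTA carriers against mice without tTA, where 13.4% of all probe sets passed, with each gene counted by its probe set of highest mean. Of 6 interneuron markers, 0 were higher and 2 lower: Gad1, the GABA-synthesizing enzyme, by -0.19 (limma, adjusted p = 0.0137) and the peptide gene Sst by -0.30 (adjusted p = 0.0440). The Sst call was lost on leaving out any of 15 of the 21 arrays (dNLS bigenic 1 to 4, each WT bigenic and each dNLS monogenic array, and nontransgenic 1, 2 and 4). Of 5 thalamic markers 1 was higher, the nuclear receptor gene Rora, at 0.57 (adjusted p = 0.000698). By the same limma fit, 0 passed among 3 excitatory neuron, 5 astrocyte, 5 microglial, 4 oligodendrocyte, 4 endothelial, 3 striatal, 3 choroid plexus and 4 hypothalamic markers. Their counts with an unadjusted p under 0.05 were 2, 0, 0, 1, 0, 1, 0 and 0 in that order. Further probe sets passed for Gfap (0.97, adjusted p = 0.0419), a gene of astrocyte filaments, for Rora (0.76, adjusted p = 0.0340) and for the myelin gene Mbp (-0.44, adjusted p = 0.0324). The Mbp one was 1425264_s_at. No other Mbp probe set passed, and they went both ways, with 1451961_a_at at 0.97 and 1425263_a_at at -0.14. Each call was lost without some single arrays: Gfap without dNLS bigenic 1, 3, 4 or 5, any dNLS monogenic array, nontransgenic 2, 4, 7 or 8, or WT bigenic 1, 2 or 3, Mbp without dNLS bigenic 4 or 5, dNLS monogenic 1 or 2, or WT bigenic 1 or 3, and Rora without dNLS bigenic 1 or 2, any dNLS monogenic array, or WT bigenic 1, 2 or 3.

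The falls in carriers that exceeded that of Ncapg2 included those of Otof at -3.33, Susd2 at -3.02, Myh7 at -2.83, Spag5 at -2.60 and Myh1 at -2.50 on the log2 scale. The largest rises were those of Pmaip1, a pro-apoptotic BH3-only gene, at 2.27, the stress-induced gene Gadd45b at 2.21, the cytokine receptor gene Tnfrsf12a at 2.11, the unnamed probe set 1424556_at at 2.11 and Plbd2 at 1.98.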
